A study of Homo sapiens with 16 samples.

Results

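The microRNA processing machinery was followed here through 9 genes of the read count table, chosen by symbol: DROSHA, DGCR8, XPO5, DICER1, TARBP2, PRKRA, TNRC6A, TNRC6B and TNRC6C. All 9 were found among the 23354 genes of the table, and all 9 were among the 14215 genes with enough counts to be tested. RNA-seq of total RNA depleted of ribosomal RNA had been run on MM1S cells, a human multiple myeloma line sensitive to dexamethasone (Dex), and on MM1R cells, its Dex-resistant counterpart. Each line received vehicle, 0.1 µM TAK-981, 1 µM Dex or both drugs together (combo) for 48 h. TAK-981 is a small-molecule inhibitor of the SUMO-activating enzyme, which starts the attachment of SUMO to proteins. There were 2 libraries in each of the 8 groups, 16 in all, and nothing in the labels says that the libraries of a group came from separate cultures. The p-values below therefore measure the spread between these libraries, which may be technical, and each line stands for itself alone.

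A microRNA (miRNA) gene is transcribed as a long primary transcript with a hairpin in it. The nuclease DROSHA and its RNA-binding partner DGCR8, together called Microprocessor, cut the hairpin out in the nucleus. XPO5 (exportin-5) carries it to the cytoplasm, where DICER1, with its partners TARBP2 and PRKRA, trims it to a duplex of mature length. One strand is loaded into an Argonaute protein, and the TNRC6 proteins (GW182 family) bind Argonaute and recruit the deadenylases that silence the target mRNA.

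Total counts per library ran from 15707587 to 24796539. The plasma cell markers followed were present in every library, from 6.74 counts per 1e6 scaled counts (CPM) for CD38 at its lowest to 4760 for JCHAIN at its highest, and MS4A1, PAX5 and CD22, which mark mature B cells, reached at most 0.542 CPM. The summed level of the 9 plasma cell markers moved with treatment in MM1S, from 8250 to 8340 CPM with vehicle to 4720 to 4760 in combo, and in MM1R, from 10200 to 10800 CPM with vehicle or Dex to 9020 to 9340 with TAK-981 or combo. Summed markers of T cells, monocytes, epithelium, fibroblasts and red cells stayed between 2.42 and 19.1 CPM, and the part of either in the results below was not tested. Replicates agreed least in MM1S cells with TAK-981 or Dex alone, where a chi-square of their counts per degree of freedom was 22.6 and 20.4, against 2.15 to 9.67 in the other 6 groups.

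The mature miRNAs at the end of this pathway that the study examined are shown first, as RefSeq gives them (GRCh38.p14), with the seed that pairs with targets, bases 2 to 8, in capitals. miR-25-3p lies on the minus strand of chromosome 7 from 100093571 to 100093592, miR-551b-3p on the plus strand of chromosome 3 from 168551914 to 168551934, and miR-130b-3p on the plus strand of chromosome 22 from 21653354 to 21653375.
hsa-miR-25-3p: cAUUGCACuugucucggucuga
hsa-miR-551b-3p: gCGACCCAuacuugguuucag
hsa-miR-130b-3p: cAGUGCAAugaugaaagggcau
The machinery also carries hairpins of its own, and these are shown because Microprocessor is known to cut the DGCR8 transcript at them. By the GENCODE release 29 annotation, mature miR-1306 of both arms lies in coding sequence of a DGCR8 exon (chromosome 22, plus strand, 20086072 to 20086093 for the 5p arm and 20086112 to 20086129 for the 3p arm). miR-3618 lies in an untranslated exon stretch of the same gene (20085797 to 20085818).
hsa-miR-3618: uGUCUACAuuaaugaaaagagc
hsa-miR-1306-5p: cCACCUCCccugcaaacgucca
hsa-miR-1306-3p: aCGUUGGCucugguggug
Both arms of miR-3173 lie in an intron of DICER1, and no other of the 9 genes held a mature miRNA of the RefSeq table. With the 3 above, these made 8 mature miRNAs with 8 different seeds. The hairpin genes had almost no counts of their own in these libraries: MIR1306 and MIR3618 had 0 counts in all 16, MIR3173 at most 3, MIR551B at most 2, MIR130B at most 6 and MIR25 at most 25. MIR1306 and MIR3618 lie within DGCR8 on the same strand, and how reads shared by 2 genes were counted is not given. Their 0 counts therefore cannot be read as absence. Mature miRNAs are not measured by these counts.

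Transcript levels within the machinery were compared per kilobase of the gene length in the count table (CPM per kb). In vehicle-treated MM1S cells XPO5 stood highest, at 20.3 ± 1.14 CPM per kb (SD, n = 2), followed by TNRC6B at 18.4 ± 0.696, DROSHA at 17.2 ± 0.215 and TNRC6A at 15.2 ± 0.00287. PRKRA had 14.2 ± 1.97 CPM per kb, with libraries on both sides of TNRC6A, so these neighbours could not be ordered. DGCR8 had 12 ± 0.267 CPM per kb, TARBP2 11.1 ± 0.222, DICER1 9.44 ± 0.44 and TNRC6C 4.78 ± 0.322, and the libraries of these neighbours did not overlap. In vehicle-treated MM1R cells XPO5 (25.8 ± 1.05) and DROSHA (20.6 ± 0.686) led. TNRC6A (15.5 ± 0.186), DGCR8 (15.2 ± 0.336) and TNRC6B (14.9 ± 0.953) followed with ranges that touched or overlapped. PRKRA had 13.6 ± 0.42 CPM per kb there, TARBP2 12.4 ± 0.101, DICER1 9.77 ± 0.143 and TNRC6C 4.95 ± 0.0243. Among all tested genes of these MM1R libraries XPO5 stood at percentile 81.2 of level per kb and TNRC6C at 42.4. No member was silent: the lowest count of any member in any library was 472, for TARBP2.

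**Figure D1:**
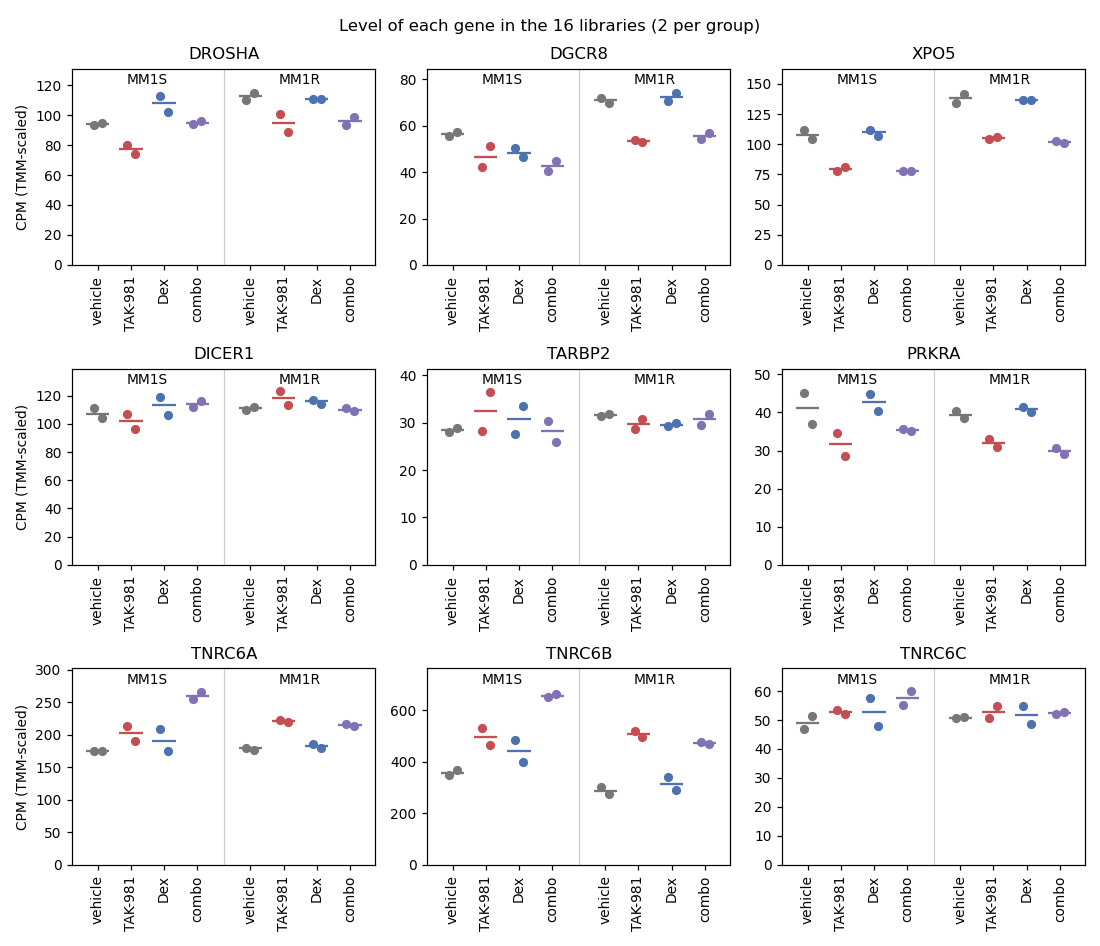
CPM (counts per 1e6 after TMM scaling, y axis from 0) of the 9 genes in each of the 16 libraries, by cell line and treatment on the x axis; points are libraries and lines are group means of 2. XPO5 and PRKRA lie lower and TNRC6B higher with TAK-981 in both lines, whereas DICER1 stays between 96.6 and 123 CPM throughout.

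The first question was what SUMO inhibition alone did to these transcripts in the Dex-sensitive line. In MM1S cells TAK-981 lowered both Microprocessor genes, the export factor and PRKRA, and raised TNRC6A and TNRC6B, so that 6 of the 9 members passed the test (2 higher, 4 lower). Of all tested genes 49.0% did so in this comparison, and the median log2 fold change was -0.073 over the members and 0.037 over all genes tested. Treated and vehicle libraries did not overlap for 70.3% of all genes tested. In bulk RNA, fewer cells expressing a gene and less of its RNA per cell cannot be told apart.

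DROSHA, the nuclease of Microprocessor, had 93.1 and 94.8 CPM in the vehicle libraries of MM1S and 80.1 and 74.2 CPM with TAK-981. Both treated libraries lay below both controls, and the log2 fold change was -0.28 (standard error 0.071, edgeR adjusted p = 0.00276). DGCR8, its RNA-binding partner, had 55.4 and 57.2 CPM with vehicle and 42.3 and 51.1 with TAK-981. Its groups did not overlap either, but the treated libraries differed more from each other than the controls did (log2 fold change -0.27, standard error 0.081, adjusted p = 0.0103). The DGCR8 call was lost with only the groups compared in the fit (-0.30, adjusted p = 0.0565). Without TAK-981 replicate 1 the DGCR8 value was -0.14 (adjusted p = 0.158), and without vehicle replicate 2 it was -0.25 (adjusted p = 0.0634). The exporter XPO5 fell from 112 and 104 CPM to 77.6 and 81.3, a change of -0.44 (standard error 0.06, adjusted p = 6.65e-06). It was the strongest decrease among the members, to 0.735 of the control level, with no overlap.

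Of the dicing genes, PRKRA changed and DICER1 and TARBP2 did not pass. PRKRA, the DICER1 partner also known as PACT, had 45.2 and 37.1 CPM in the controls and 34.5 and 28.7 with TAK-981. Its log2 fold change was -0.38 (standard error 0.098, adjusted p = 0.00345), and without vehicle replicate 1, the higher control, it was -0.23 (adjusted p = 0.11). DICER1 itself had 111 and 104 CPM in the controls and 107 and 96.6 with treatment, with overlapping groups and a log2 fold change of -0.073 (95% interval -0.22 to 0.074, adjusted p = 0.413). TARBP2, the other DICER1 partner, had 28 and 28.8 CPM with vehicle, and its treated libraries stood apart from each other at 28.3 and 36.5. The TARBP2 change was 0.19 (95% interval -0.044 to 0.43, adjusted p = 0.169), and it rested on replicate 2: without replicate 1 it was 0.36 (adjusted p = 0.00823) and without replicate 2 it was -0.0059.

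Of the 3 TNRC6 paralogs, TNRC6B moved most in these MM1S cells. It had 347 and 366 CPM with vehicle and 531 and 463 with TAK-981, so every treated library lay above every control (log2 fold change 0.48, standard error 0.09, adjusted p = 0.000277). TNRC6A had 175 CPM in both controls and 214 and 190 CPM with TAK-981, a change of 0.21 (standard error 0.073, adjusted p = 0.0227). The TNRC6A call did not hold without TAK-981 replicate 1 (0.12) or without vehicle replicate 1 or 2 (0.21 each). It was also lost with scaling by library size alone (0.16, adjusted p = 0.1) and with only the groups compared in the fit (0.18, adjusted p = 0.14). TNRC6C had 46.8 and 51.4 CPM with vehicle and 53.4 and 52.2 with TAK-981 (0.11, 95% interval -0.076 to 0.29, adjusted p = 0.328).

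The same comparison in Dex-resistant cells asked whether the response depended on the line. In MM1R cells the count was again 6 of 9 members (2 higher, 4 lower), where 53.4% of all genes tested passed. Treated and vehicle libraries were separate for 81.2% of all genes tested there. DROSHA had 110 and 115 CPM with vehicle and 101 and 89 with TAK-981, with no overlap (log2 fold change -0.25, standard error 0.069, adjusted p = 0.00582). Its call was lost without TAK-981 replicate 2 (-0.16, adjusted p = 0.125), without vehicle replicate 2 (-0.21, adjusted p = 0.0617) and under upper quartile scaling (-0.17, adjusted p = 0.0547). DGCR8 fell from 72 and 69.8 CPM to 54 and 53.1, by 0.41 on the log2 scale (standard error 0.079, adjusted p = 0.000314), with a clear gap between groups. XPO5 had 134 and 142 CPM with vehicle and 104 and 106 with TAK-981, also well apart (-0.39, standard error 0.059, adjusted p = 2.09e-05). PRKRA fell from 40.3 and 38.5 CPM to 33.1 and 30.9 (-0.30, standard error 0.097, adjusted p = 0.0146), although without TAK-981 replicate 2 its adjusted p was 0.118, without vehicle replicate 1 it was 0.0861, and under upper quartile scaling it was 0.0675 (-0.22).

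TNRC6B showed the largest change of any member in MM1R cells. It went from 300 and 274 CPM to 519 and 494, or 1.76-fold (log2 fold change 0.82, standard error 0.09, adjusted p = 9.23e-07). TNRC6A went from 180 and 177 CPM to 223 and 219 (0.31, standard error 0.072, adjusted p = 0.00155), again without overlap. TNRC6C had 50.6 and 51 CPM with vehicle and 50.8 and 55 with TAK-981, so its groups overlapped (0.06, adjusted p = 0.585). DICER1 had 110 and 112 CPM with vehicle and 123 and 113 with TAK-981 (0.096, 95% interval -0.05 to 0.24, adjusted p = 0.259). DICER1 passed there under upper quartile scaling (0.18, adjusted p = 0.0421) and with only the groups compared (0.11, adjusted p = 0.0193), and was at -0.076 with the length offset described below. TARBP2 had 31.5 and 31.9 against 28.6 and 30.8 (-0.095, adjusted p = 0.494).

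The responses of the lines to TAK-981 were then compared directly by an interaction term. It passed for 0 of the 9 members, against 4.16% of all genes tested, and 1 member had an unadjusted p under 0.05. That member was TNRC6B, whose change was larger in MM1R by 0.34 on the log2 scale (95% interval 0.075 to 0.61, adjusted p = 0.137). Without MM1S TAK-981 replicate 1 the TNRC6B term passed (0.44, adjusted p = 0.0286), as it did with no filter on low counts (0.34, adjusted p = 0.00954). TARBP2 had an interaction of -0.29 (adjusted p = 0.304), and it too passed without MM1S TAK-981 replicate 1 (-0.46, adjusted p = 0.0304). For the other 7 members the interaction lay between -0.14 and 0.17.

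The TNRC6 genes and DICER1 are the longest members, with 19.339 kb for TNRC6B, 11.505 kb for TNRC6A, 11.343 kb for DICER1 and 10.26 kb for TNRC6C in the count table. Gene length moved with several of these comparisons. Among the 616 tested genes of 10 kb and over, the median log2 fold change of TAK-981 was 0.21 in MM1R and 0.068 in MM1S. For the 3028 genes under 2 kb it was -0.092 in MM1R and 0.036 in MM1S. The same trend separated replicates of a group: between replicates 1 and 2 of MM1S with TAK-981 the median log2 ratio was 0.091 for genes of 10 kb and over and -0.10 for those under 2 kb, and in MM1S with Dex it was 0.15 and -0.12. An alternative fit chosen after the data were seen removed the trend of each library with length. In it TNRC6B remained higher with TAK-981, at 0.37 and 0.50 in MM1S and MM1R (adjusted p = 1.58e-05 and 4.32e-07). TNRC6A was at 0.18 in MM1S and 0.13 in MM1R, the latter with an adjusted p of 0.0467. The interaction of TNRC6B fell to 0.13 (adjusted p = 0.376). The decreases of DROSHA, DGCR8, XPO5 and PRKRA moved little, and all 8 remained called, at -0.46 to -0.28.

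**Figure D2:**
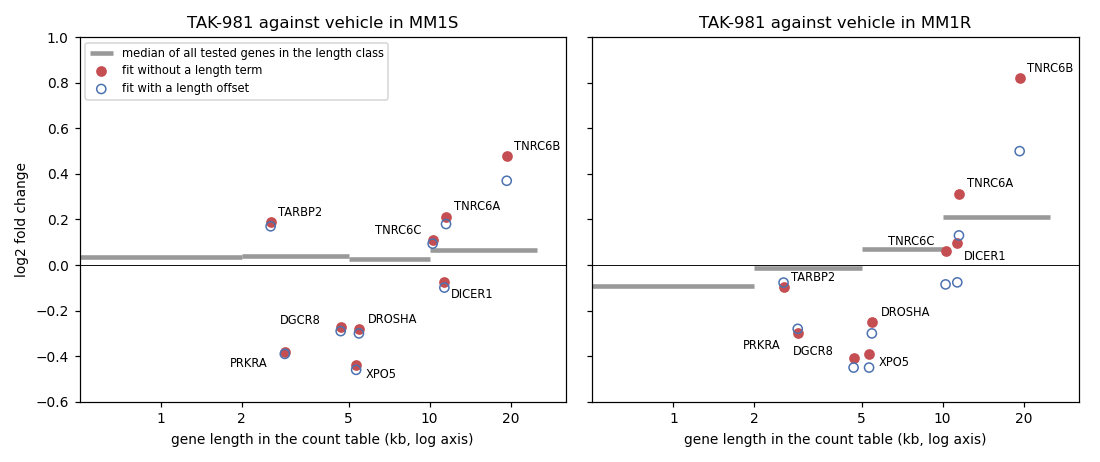
Log2 fold change of TAK-981 against vehicle (y axis) by gene length in kb (log x axis) for the 9 members in MM1S (left) and MM1R (right); filled points are the fit without a length term, open points the fit with a length offset, and grey bars the medians of all tested genes in 4 length classes. TNRC6B, the longest member, comes down from 0.82 to 0.50 in MM1R with the offset, whereas XPO5 goes from -0.39 to -0.45.

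Dex alone was compared with vehicle in each line, with the same vehicle libraries as above. In MM1S cells 3 of 9 members passed (2 higher, 1 lower), against 42.3% of all genes tested. For 68.8% of all genes tested the Dex and vehicle libraries did not overlap. DROSHA had 113 and 102 CPM with Dex, above both controls (log2 fold change 0.19, standard error 0.07, adjusted p = 0.0315). DGCR8 went the other way, with 50.3 and 46.5 CPM, below both controls (-0.22, standard error 0.081, adjusted p = 0.0382). TNRC6B had 486 and 400 CPM with Dex, above both controls but far apart from each other (0.31, standard error 0.089, adjusted p = 0.00937). The DROSHA call was lost with only the groups compared (0.19, adjusted p = 0.0773) and with scaling by library size alone (0.17, adjusted p = 0.0738). None of these 3 calls held without vehicle replicate 1, with values of 0.18 for DROSHA, -0.24 for DGCR8 and 0.28 for TNRC6B (adjusted p = 0.145, 0.0908 and 0.0864). Without Dex replicate 1 DROSHA was at 0.12 (adjusted p = 0.265) and TNRC6B at 0.17 (adjusted p = 0.154), without Dex replicate 2 DGCR8 was at -0.17 (adjusted p = 0.197), and without vehicle replicate 2 DROSHA was at 0.21 (adjusted p = 0.0891) and DGCR8 at -0.19 (adjusted p = 0.16). TNRC6A had 208 and 175 CPM with Dex, a change of 0.13 (adjusted p = 0.161), and passed without replicate 2 (0.24, adjusted p = 0.0164). XPO5 had 112 and 107 CPM and PRKRA 44.9 and 40.5 CPM with Dex, both within or beside the range of their controls, with changes of 0.021 and 0.051.

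In MM1R cells Dex changed none of the 9 members by edgeR's test, with 0 at an unadjusted p under 0.05 as well. Of all genes tested 0% passed there, and 395 had an unadjusted p under 0.05. Changes of the members lay between -0.099 and 0.13. DROSHA had 111 CPM in both MM1R Dex libraries and DGCR8 70.8 and 73.9, and their intervals ran from -0.16 to 0.12 and from -0.13 to 0.19. The interaction of cell line and Dex passed for 0 of 9 members, against 28.1% of all genes tested. DROSHA had an interaction of -0.21 and DGCR8 of 0.25 (adjusted p = 0.114 and 0.109), and these were the 2 members with an unadjusted p under 0.05. Under a fit of only the groups compared DGCR8 passed (0.25, adjusted p = 0.0467).

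Both drugs together were compared with vehicle, with Dex and with TAK-981, and these comparisons share their combo libraries. Against vehicle in MM1S, 5 of 9 members passed (3 higher, 2 lower) where 60.3% of all genes did. Combo and vehicle libraries were separate for 81.8% of all genes tested. TNRC6B had 650 and 661 CPM in combo, the highest level of the series and 1.84-fold that of vehicle (log2 fold change 0.88, standard error 0.09, adjusted p = 2.04e-07). TNRC6A had 255 and 265 CPM (0.57, standard error 0.073, adjusted p = 1.74e-06), and TNRC6C had 55.1 and 59.9 CPM, above its controls of 46.8 and 51.4 (0.23, standard error 0.087, adjusted p = 0.0295). The TNRC6C call was lost with the length offset (0.13, adjusted p = 0.153), without vehicle replicate 1 (0.16, adjusted p = 0.234) and without combo replicate 2 (0.17, adjusted p = 0.213). With the length offset TNRC6B was at 0.62 and TNRC6A at 0.44. XPO5, at 77.4 and 77.6 CPM, was lower than with vehicle by 0.48 (standard error 0.061, adjusted p = 1.62e-06), and DGCR8, at 40.6 and 44.8 CPM, by 0.40 (standard error 0.083, adjusted p = 0.00043).

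DROSHA did not share that decrease in MM1S combo. It had 94.1 and 95.8 CPM, around its controls of 93.1 and 94.8, with a change of 0.015 (95% interval -0.13 to 0.16, adjusted p = 0.866). PRKRA had 35.6 and 35.2 CPM, below both controls, with a change of -0.22 (95% interval -0.43 to -0.013, adjusted p = 0.0617). It passed without vehicle replicate 2 (-0.35, adjusted p = 0.0107) and under several other settings, and was at -0.07 without vehicle replicate 1. DICER1 and TARBP2 had changes of 0.091 and -0.014 and did not pass.

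Against TAK-981 alone in MM1S, 3 of 9 members were higher in combo and none lower, where 35.1% of all genes passed. DROSHA was higher by 0.30 (standard error 0.071, adjusted p = 0.003), with 94.1 and 95.8 CPM against 80.1 and 74.2. TNRC6A was higher by 0.36 (standard error 0.072, adjusted p = 0.000675) and TNRC6B by 0.40 (standard error 0.089, adjusted p = 0.00204), each without overlap of the libraries. The libraries of 60.4% of all genes tested were likewise separate. With the length offset TNRC6B was at 0.24 (adjusted p = 0.00211). Without TAK-981 replicate 1 DICER1 was at 0.24, against 0.16 (adjusted p = 0.0803) with all libraries. An interaction term of TAK-981 and Dex tested departure from additive log2 changes. It passed for 0 of 9 members in MM1S, against 14.9% of all genes tested, and 1 member, TNRC6A, had an unadjusted p under 0.05 (0.23, 95% interval 0.017 to 0.45, adjusted p = 0.137). TNRC6A passed without TAK-981 replicate 1 (0.32, adjusted p = 0.0204) or Dex replicate 1 (0.36, adjusted p = 0.0119), and was at 0.11 with the length offset.

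Against Dex alone in MM1S, 5 of 9 members passed (2 higher, 3 lower), against 47.6% of all genes. XPO5 was lower by 0.50 (standard error 0.061, adjusted p = 2.05e-06), PRKRA by 0.27 (standard error 0.098, adjusted p = 0.0304) and DROSHA by 0.18 (standard error 0.07, adjusted p = 0.0427). TNRC6B was higher by 0.57 and TNRC6A by 0.44 (adjusted p = 6.26e-05 and 6.67e-05), and with the length offset by 0.31 and 0.29, both still called. Neither DROSHA nor PRKRA passed when Dex replicate 1, combo replicate 1 or combo replicate 2 was left out, with values of -0.19 to -0.10 and -0.28 to -0.20. Under upper quartile scaling, which raised the median of all genes from 0.0065 to 0.097, DROSHA was at -0.09 and PRKRA at -0.18, and neither passed. Scaling by library size alone also lost both (-0.16 and -0.25, adjusted p = 0.085 and 0.057). With only the groups compared DROSHA did not pass (-0.17, adjusted p = 0.127). DGCR8 was at -0.18 here (adjusted p = 0.0865), and passed with the length offset (-0.23, adjusted p = 0.0259).

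In MM1R cells, where Dex alone changed no member, combo gave values close to those of TAK-981. Against vehicle 6 of 9 members passed (2 higher, 4 lower; 51.5% of all genes), and against Dex also 6 of 9 (2 higher, 4 lower; 48.4% of all genes). In combo XPO5 had 103 and 101 CPM, DGCR8 54.3 and 56.8, DROSHA 93.2 and 98.8 and PRKRA 30.6 and 29.1. All 4 lay below both of their vehicle libraries, with changes from vehicle of -0.43, -0.35, -0.23 and -0.40 (adjusted p = 7.35e-06, 0.00107, 0.00972 and 0.00216). Combo and vehicle libraries did not overlap for 80.9% of all genes tested. The DROSHA call was lost without vehicle replicate 2 (-0.20, adjusted p = 0.0882) and without combo replicate 1 (-0.19, adjusted p = 0.1), and under upper quartile scaling (-0.16, adjusted p = 0.0696). TNRC6B had 475 and 468 CPM (0.71, adjusted p = 4.48e-06) and TNRC6A 216 and 214 CPM (0.26, adjusted p = 0.00513), above all their controls. With the length offset TNRC6B was at 0.43 against vehicle and 0.38 against Dex (both called), and TNRC6A was at 0.12 and 0.13 (adjusted p = 0.0776 and 0.0573). Against Dex the DROSHA change was -0.21 (adjusted p = 0.0174), and leaving out combo replicate 1 gave -0.17 (adjusted p = 0.147), Dex replicate 1 or 2 gave -0.21 each (adjusted p = 0.0615 and 0.0675). TNRC6A against Dex, at 0.23 (adjusted p = 0.0139), was lost without Dex replicate 2 (0.20), combo replicate 1 (0.22) or combo replicate 2 (0.23). Combo against TAK-981 passed for 0 of 9 members and 0% of all genes in MM1R, with 0 members and 214 genes at an unadjusted p under 0.05, and the members lay between -0.10 and 0.053. The interaction of TAK-981 and Dex in MM1R likewise passed for 0 of 9 members and 0% of all genes, with 0 members at an unadjusted p under 0.05.

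**Figure D3:**
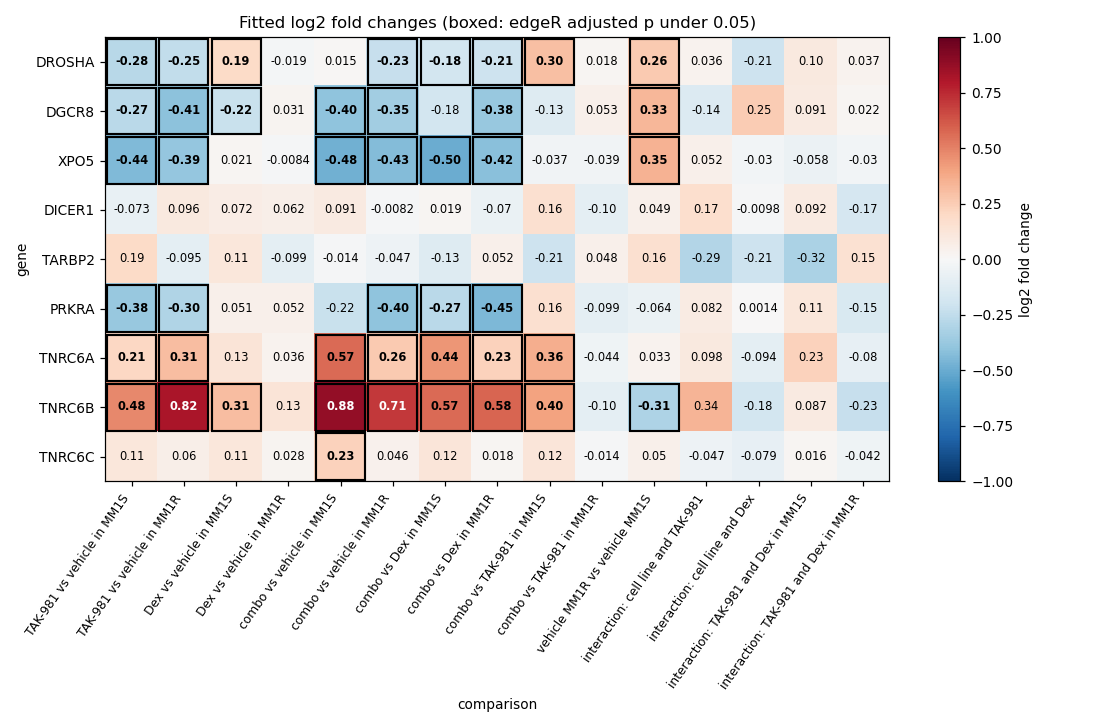
Fitted log2 fold changes (colour, with values printed) of the 9 members in rows and the 15 comparisons in columns; boxes mark an edgeR adjusted p under 0.05. XPO5 is boxed as lower in each of the 6 comparisons of TAK-981 or combo with vehicle or Dex, TNRC6B as higher in the same 6, and no member is boxed in the 4 interactions.

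The lines were also compared without drug, to see whether the machinery differed between Dex-sensitive and Dex-resistant cells at baseline. In vehicle-treated MM1R cells 3 of 9 members were higher and 1 lower than in vehicle-treated MM1S, against 48.2% of all genes passing in either direction. XPO5, with 134 and 142 CPM against 112 and 104, was higher by 0.35 (standard error 0.059, adjusted p = 9.28e-05). DGCR8, with 72 and 69.8 CPM against 55.4 and 57.2, was higher by 0.33 (standard error 0.079, adjusted p = 0.00193). DROSHA, with 110 and 115 CPM against 93.1 and 94.8, was higher by 0.26 (standard error 0.069, adjusted p = 0.00462, and 0.0567 without MM1R vehicle replicate 2, where the change was 0.23). In each of these the libraries of the lines were separate, as they were for 79.2% of all genes tested.

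TNRC6B was lower in MM1R, with 300 and 274 CPM against 347 and 366 (-0.31, standard error 0.09, adjusted p = 0.00853). That call did not hold with the length offset (-0.12, adjusted p = 0.0945), in a comparison where genes of 10 kb and over had a median of -0.13. It was also lost without MM1R vehicle replicate 2 (-0.25, adjusted p = 0.0988) and without MM1S vehicle replicate 2 (-0.27, adjusted p = 0.0714). The 5 members that did not pass were DICER1, TARBP2, PRKRA, TNRC6A and TNRC6C, with changes from -0.064 to 0.16. The line comparison and the TAK-981 comparisons use the same vehicle libraries, so their values for XPO5, DGCR8, DROSHA and TNRC6B are not independent of each other. The same holds for the values of AGO4, KHSRP and HSP90AA1 below.

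The balance of partners within the machinery was described by ratios of levels per kb. DROSHA per kb over DGCR8 per kb was 1.43 ± 0.0138 (SD, n = 2) in vehicle-treated MM1S, 1.9 ± 0.0375 with Dex and 1.9 ± 0.108 in combo. With TAK-981 alone the MM1S libraries gave 1.24 and 1.62, on both sides of the vehicle value. In MM1R the ratio of levels per kb was 1.31 to 1.41 with vehicle and 1.29 to 1.34 with Dex, and higher with TAK-981 (1.43 to 1.6) and in combo (1.47 to 1.49). Of the summed TNRC6 level per kb, TNRC6B made up 48% ± 0.544 in vehicle-treated MM1S, 53.1% ± 0.674 with TAK-981, 51.3% ± 0.364 with Dex and 54.6% ± 0.535 in combo. In MM1R TNRC6B and TNRC6A had similar shares with vehicle, 42% ± 1.37 and 44% ± 0.862, and with TAK-981 the TNRC6B share was 51.8% ± 0.889. TNRC6C made up between 8.77% and 14.4% in the 16 libraries. These ratios were given no test of their own and no correction for the length trend above. With the length offset TNRC6B was at -0.12 between vehicle-treated lines and 0.50 with TAK-981 in MM1R, beside -0.31 and 0.82 without it.

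**Figure D4:**
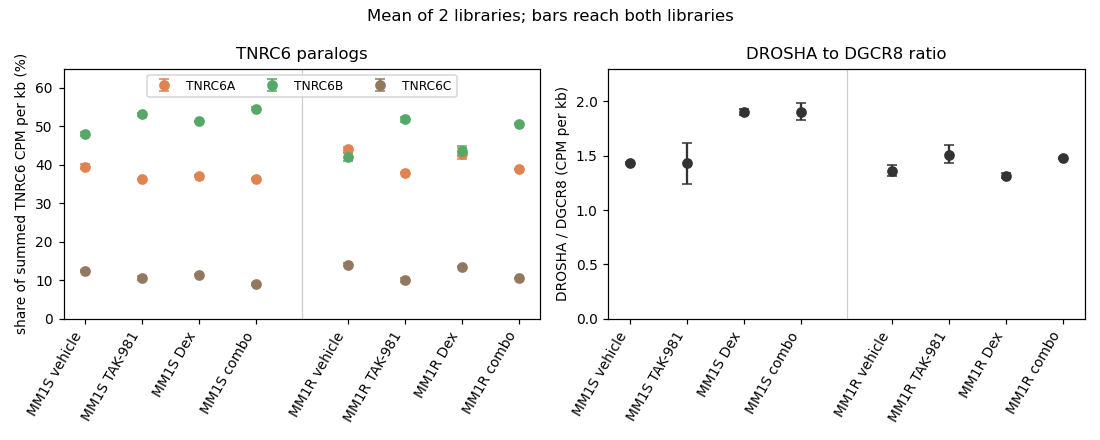
Left, share of each TNRC6 paralog in the summed TNRC6 CPM per kb (y axis, percent); right, DROSHA over DGCR8 in CPM per kb (y axis, ratio), both by group on the x axis; points are means of 2 libraries and bars reach both libraries. The TNRC6B share is between 50.6% and 54.6% in the 4 groups with TAK-981, and the DROSHA to DGCR8 ratio is near 1.9 in MM1S with Dex or combo. No length offset was applied.

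Across all 16 libraries DGCR8 and XPO5 varied together, and against TNRC6A and TNRC6B. Pearson's r of log2 CPM was 0.90 for DGCR8 with XPO5 and 0.90 for TNRC6A with TNRC6B, and -0.88 for XPO5 with TNRC6B and -0.87 for DGCR8 with TNRC6B. DICER1 and TARBP2 had weaker correlations with these genes, with r of 0.31 and 0.09 with XPO5 and 0.12 and -0.27 with TNRC6B. With each other they had r = -0.64 (-0.77 within MM1S and -0.84 within MM1R). DICER1 had r = 0.61 with DROSHA over all libraries, 0.75 within MM1S and 0.03 within MM1R. DROSHA had r = 0.61 with DGCR8 over all libraries, 0.10 within the 8 of MM1S and 0.91 within the 8 of MM1R. The 16 points share 8 conditions and the length trend above, so r is given as a description. Among 9637 genes with a mean log2 CPM of at least 3, those most like XPO5 over the 16 libraries were STK39 (r = 0.993), PRPF4 (0.989) and PRKDC (0.988), and 9.56% of them had r above 0.9 with XPO5. DGCR8 was most like MARS, TCF3 and SOCS7 (0.972 each), and 7.62% had r above 0.9. TNRC6B was most like MAML2 (0.988), BPTF (0.983) and ARIH1 (0.982), with 3.85% above 0.9. TNRC6A had EIF4G3 (0.971), ZNF484 (0.962) and ZBTB2 (0.958), DROSHA had AKAP1 (0.958), WDR43 (0.948) and AP1S3 (0.941), and PRKRA had RAB11A (0.945), ZNF215 (0.940) and MKL2 (0.936). Of the members that passed least often, DICER1 had NCOR1 (0.893), DHX29 (0.852) and EEA1 (0.847), TARBP2 had RPS19BP1 (0.916), ZNF444 (0.837) and SIL1 (0.830), and TNRC6C had GGA3 (0.828), ACADSB (0.806) and CSNK1G1 (0.787). The share with r above 0.9 was 0% for DICER1 and TNRC6C and 0.0104% for TARBP2. It was also small for TNRC6A (0.425%), PRKRA (0.291%) and DROSHA (0.259%).

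The Argonautes, which hold the mature miRNA and bind the TNRC6 proteins, were read beside the members. AGO2, the Argonaute that can slice its targets, had 81 and 85.3 CPM in vehicle-treated MM1S, 62.3 and 59.3 with TAK-981, 118 and 99.9 with Dex and 103 and 110 in combo. Its changes from vehicle were -0.45 with TAK-981 (adjusted p = 6.17e-05), 0.39 with Dex (adjusted p = 0.000254) and 0.36 in combo (adjusted p = 0.000362), and combo lay above TAK-981 by 0.81 (adjusted p = 8.48e-08). DROSHA had the same order of group means in MM1S, but its combo and vehicle libraries overlapped (0.015, adjusted p = 0.866). In MM1R AGO2 was at 100 and 99.5 CPM with vehicle and 89.7 and 90.6 with TAK-981, below both controls (-0.15, adjusted p = 0.0972). It passed there with only the groups compared (-0.13, adjusted p = 0.00368) and under a replicate block (-0.15, adjusted p = 0.0475). AGO4 was lower in vehicle-treated MM1R than in MM1S, with 25.6 and 23.1 CPM against 46.1 and 51.6 (-1.01, standard error 0.09, adjusted p = 5.94e-08). In MM1R it was higher with TAK-981, at 39.9 and 38.4 CPM (0.69, adjusted p = 5.12e-06), while in MM1S it had 59 and 52.8 CPM (0.19, adjusted p = 0.0686, with a call under 5 of the other settings at 0.19 to 0.28). AGO1 fell by 0.17 with TAK-981 in MM1S (adjusted p = 0.0487), a call lost among others under upper quartile scaling (-0.12) and without vehicle replicate 1 (-0.16), vehicle replicate 2 (-0.18) or TAK-981 replicate 1 (-0.13). AGO3 was higher with TAK-981 in MM1R by 0.37 (adjusted p = 0.0304), a call that no fit without 1 of those 4 libraries kept (0.30 to 0.43).

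A wider list of 64 genes around the machinery, 62 of them tested, gave the context of the pathway; LIN28A and LIN28B, which block let-7 processing, had at most 3 and 2 counts. With TAK-981 in MM1S 12 were higher and 26 lower (61.3% of the 62, beside 49.0% of all genes). In MM1R 12 were higher and 24 lower (58.1%, beside 53.4%). Dex in MM1S gave 14 higher and 11 lower, or 40.3% beside 42.3% of all genes, and vehicle-treated MM1R against MM1S gave 25 and 12, or 59.7% beside 48.2%. The 11 Microprocessor cofactors had a median of -0.31 with TAK-981 in MM1S and -0.37 in MM1R, but they split by direction. The calls were 7 lower and 4 higher in MM1S, and 7 lower and 2 higher in MM1R. Of all genes 23.7% were lower in MM1S and 27.6% in MM1R, and the shares called higher were 25.2% and 25.8%. DDX5 was higher by 0.41 in MM1S and 0.17 in MM1R (adjusted p = 1.16e-05 and 0.0191). DDX17 was higher by 0.17 and 0.13 (adjusted p = 0.00615 and 0.0229). KHSRP, an RNA-binding protein that promotes processing of some hairpins, was lower by 0.45 and 0.51 (adjusted p = 8.03e-06 and 1.9e-06). In the group of Argonautes, export and loading, 8 of 12 were lower in MM1S and 7 of 12 in MM1R, led by HSP90AA1, the chaperone that helps load Argonaute (-0.72 and -0.98, adjusted p = 4.27e-08 and 8.63e-10). The same group had 10 of 12 genes higher and 1 lower, AGO4, in vehicle-treated MM1R than in MM1S (25.6% of all genes higher and 22.6% lower), with HSP90AA1 higher by 0.77 (adjusted p = 2.97e-08).

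Called shares of the downstream groups with TAK-981 lay near or below those of all genes (49.0% in MM1S and 53.4% in MM1R). Of 25 deadenylation, decapping and decay genes, TAK-981 raised 4 and lowered 8 in MM1S, and raised 5 and lowered 8 in MM1R (48% and 52% called). The decapping activator PATL1 was lower in both lines (-0.44 in MM1S and -0.36 in MM1R, adjusted p = 5.36e-05 and 0.000277). MOV10, an RNA helicase bound to Argonaute, was higher in both (0.65 and 0.95, adjusted p = 0.000652 and 1.16e-05). Of 14 tested genes of miRNA tailing, editing and turnover, it raised 4 and lowered 3 in MM1S, and raised 3 and lowered 2 in MM1R (50% and 35.7% called). ZSWIM8, the ubiquitin ligase adaptor of target-directed miRNA decay, was higher by 0.82 in MM1S and 0.45 in MM1R (adjusted p = 1.05e-08 and 1.89e-05). ZC3H12A, a nuclease that can cut miRNA hairpins, was higher with TAK-981 by 0.47 in MM1S and 0.98 in MM1R (adjusted p = 3.74e-05 and 6.4e-09), and with Dex in MM1S by 2.29 (adjusted p = 4.05e-14). With Dex in MM1S the decapping enzyme DCP2 was lower by 0.76 (adjusted p = 9.18e-08) and the RNA-binding protein HNRNPA2B1 lower by 0.29 (adjusted p = 0.00118). Between vehicle-treated lines KHSRP (0.47), CNOT9, a subunit of the CCR4-NOT deadenylase (0.29), and the RNA editing enzyme ADARB1 (-2.61, from 5.07 to 0.826 CPM) had the smallest adjusted p in their groups (7.12e-06, 0.000322 and 1.96e-08). The list was chosen with results of these data known.

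**Figure D5:**
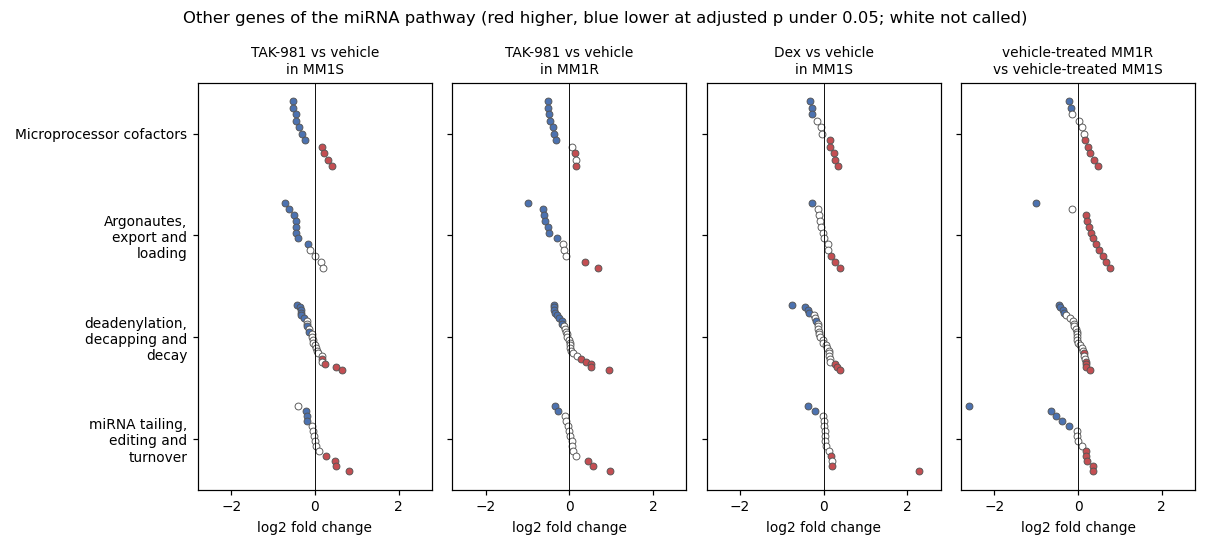
Log2 fold changes (x axis) of the 62 tested genes of the wider miRNA pathway, in 4 groups of genes (y axis), for TAK-981 in MM1S, TAK-981 in MM1R, Dex in MM1S and the vehicle-treated lines; each point is a gene, red where higher, blue where lower and white where the adjusted p was not under 0.05. Points of the upper 2 groups lie mostly left of 0 with TAK-981, and ZC3H12A stands alone at 2.29 with Dex.

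Positions and neighbours of the members bear on what their counts hold. The table places DROSHA on chromosome 5 from 31400602 to 31532282 (minus strand), DGCR8 on chromosome 22 from 20067755 to 20099400 (plus), XPO5 on chromosome 6 from 43490068 to 43543812 (minus) and TNRC6B on chromosome 22 from 40440821 to 40731812 (plus), on hg19. XPO5 overlaps POLR1C on the other strand by 7047 bases, and TNRC6C overlaps TNRC6C-AS1 on the other strand by 1434 bases. Whether strand was used in counting is not stated, so reads of such pairs cannot be told apart. POLR1C had 526 to 888 counts per library and changed by -0.13 with TAK-981 in MM1S (adjusted p = 0.241), where XPO5 changed by -0.44. It was lower with TAK-981 in MM1R (-0.22, adjusted p = 0.0442, beside -0.39 for XPO5) and higher in vehicle-treated MM1R than in MM1S (0.23, adjusted p = 0.035, beside 0.35). TNRC6C-AS1 had 405 to 1368 counts and was higher with TAK-981 by 0.53 in MM1S and 0.90 in MM1R and in MM1S combo by 0.99 (adjusted p = 2.52e-05, 9.53e-08 and 4.26e-09), the last beside the TNRC6C change of 0.23. DICER1-AS1 shares 323 bases with DICER1, with 21 to 79 counts, and was higher with TAK-981 in MM1S by 1.34 (adjusted p = 0.000477) while DICER1 was at -0.073. TRMT2A shares only 12 bases with DGCR8, and was at -0.38 with TAK-981 in MM1R (adjusted p = 0.00057) beside -0.41 for DGCR8.

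Promoter windows of RefSeq (GRCh38.p14, 250 bases before to 50 after a start site) were found for all 9 members, 20 windows in all. They were searched on both strands for the E-box CACGTG, its variant CACGCG and the E2F-type motif TTTCCCGC. The letters CACGTG were in 1 member's windows (TNRC6C; 8.77% of 27305 genes hold it in some window), CACGCG in those of 4 members (DGCR8, XPO5, TARBP2 and PRKRA; 13.5% of genes) and TTTCCCGC in none (1.98% of genes). The stretches around CACGCG in these 4 members are shown (for XPO5 the farther upstream of 2) with the motif in capitals, in the direction of the gene, where CGCGTG is the motif on the other strand.
DGCR8, chr22:20080125-20080150, plus strand: gcggcggacaCACGCGctacgcgccg
XPO5, chr6:43576049-43576074, minus strand: cttccgcgggCGCGTGcgcagtggcg
TARBP2, chr12:53501351-53501376, plus strand: tgtattggggCGCGTGgaggctgcag
PRKRA, chr2:178451310-178451335, minus strand: tgcctgtgccCACGCGggagcggggc
DGCR8, XPO5 and PRKRA were lower with TAK-981 in both lines, TARBP2 was not called in either (0.19 and -0.095), and DROSHA, also lower, had none of these 3 motifs in its window. The shares of genes were not matched for base content, and enrichment was not tested. G and C made up 80.3% of the DGCR8 window, 71.7% for XPO5, 71.7% to 79% for PRKRA and 59% to 68% for TARBP2. The window of TNRC6A, without CACGCG, had 73.7%. Each match is a description of letters in a window, and no binding was measured.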

How the data were processed

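RNA-seq libraries of MM1S and MM1R cells were read from the table of counts per gene that the authors deposited, raw and without normalization, with positions on hg19. The submitters' processing notes name bcl2fastq 2.18.0.12, STAR 2.6.0, HTSeq 0.6.0 and edgeR 3.28.1; their settings, strand included, are not given in the sources used here. Samples were grouped by the labels. The value of 1 marker gene is not reported here. Genes were filtered with filterByExpr and scaled with TMM, and a model with a coefficient for each of the 8 groups was fitted over the 16 libraries (8 residual degrees of freedom) by edgeR's robust quasi-likelihood F test, with Benjamini-Hochberg adjustment over 14215 genes, threshold 0.05. Log2 CPM used a prior count of 2. Numbered replicates were not treated as pairs. The code was tested on simulated data. Alternatives were RLE, upper quartile and library size scaling, no filter, DESeq2, only the groups compared, a replicate block, each library left out, and a length offset (lowess, span 0.3) added after the data were seen. Named were all members, AGO1 to AGO4, per group of the wider list the gene with the smallest adjusted p in 4 comparisons, and per member the 3 genes with the highest r. Neighbours and motifs were chosen later. The members and lists were chosen with earlier results of these data known. Software was DESeq2 1.42.0, edgeR 4.0.16 and limma 3.58.1 in R 4.3.3, and matplotlib 3.10.9 in Python 3.11.15.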

Additional observations from a re-analysis of the deposited data

Results flagged for a closer look

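In 3 cases an Argonaute's response differed between groups by a test of the difference itself. AGO1 to AGO4 were each tested in every interaction term, and AGO1 and AGO3 passed in none. Of all genes tested 4.16% passed the line by TAK-981 term and 28.1% the line by Dex term. The TAK-981 by Dex term passed for 14.9% of all genes in MM1S and 0% in MM1R. The response of AGO4 to TAK-981 was larger in MM1R than in MM1S by 0.49 on the log2 scale (edgeR interaction, adjusted p = 0.0321), with 2 of 2 treated libraries above both controls in each line. Treated and vehicle libraries were separate for 70.3% and 81.2% of all genes with TAK-981 in MM1S and MM1R, and for 68.8% with Dex in MM1S. The response of AGO2 to Dex differed between the lines by -0.33 (adjusted p = 0.0193), with both Dex libraries above both controls in MM1S, while in MM1R the Dex libraries had 100 and 107 CPM against 100 and 99.5. In MM1S the combo value of AGO2 lay above additive log2 changes by 0.42 (adjusted p = 0.012). Leaving out single libraries gave 0.41 to 0.57 for AGO4 (lost in 6 of 8 fits, all but those without MM1S vehicle replicate 1 or MM1S TAK-981 replicate 1, with an adjusted p of up to 0.177). For AGO2 it gave -0.44 to -0.21 in the Dex term (lost without MM1S vehicle replicate 1, MM1S Dex replicate 1, MM1R vehicle replicate 1 or 2, or MM1R Dex replicate 1, up to 0.111) and 0.30 to 0.54 in the combined term (lost without MM1S vehicle, Dex or combo replicate 2, up to 0.0679). With only the groups compared the AGO4 term (0.50, adjusted p = 0.0588) and the combined AGO2 term (0.42, adjusted p = 0.0818) were lost too. In the fit used for the results above, no interaction of the 9 members passed. Some alternative fits of all 16 libraries did call members, as given below.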

How the results depend on the processing

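With 2 libraries per group, a fit that leaves 1 out assumes that the lone library varies like the others. Combo against Dex in MM1S called 3 members under upper quartile scaling and under library size only, in place of 5. Of the 14215 genes tested, 6964 and 6702 were called under those scalings, beside 6765 in the fit used above. In place of 0, the line by TAK-981 term called 1 with no filter, and the line by Dex term called 1 with the length offset and 1 with only the groups compared. The labels do not say whether same-numbered replicates were pairs. Correlations of their deviations were 0.02 to 0.26 in MM1S, with 2 of 6 over 0.1, and -0.01 to 0.08 in MM1R. A replicate block called 1 member in the line by TAK-981 term, 2 in the line by Dex term and 1 in the TAK-981 by Dex term of MM1S. In the fit used above these terms called 4.16%, 28.1% and 14.9% of all genes. Their shares in the other fits are not given here, so these counts do not single out the members. Leaving out single libraries gave 0 to 3 members for Dex in MM1S, 3 to 5 for combo against Dex and 3 to 7 for combo against TAK-981 in MM1S, 2 to 4 between vehicle-treated lines, 0 to 2 for the line by TAK-981 term and for the TAK-981 by Dex term of MM1S, and 23 to 29 genes of the wider list between lines, in place of 37. Signs turned, without a call, for TARBP2 with TAK-981 in MM1S (-0.0059 to 0.36), for DICER1 (-0.076) and TNRC6C (-0.085) with TAK-981 in MM1R under the length offset, and for DROSHA in MM1S combo (-0.035 with the length offset, -0.0016 with only the groups compared). The TARBP2 value of 0.36, without TAK-981 replicate 1, was called. Upper quartile scaling moved the median of all genes from 0.037 to 0.13 for combo against vehicle in MM1S. It also moved the share of calls that were higher from 48.3% to 58.5% for TAK-981 in MM1R, from 46.7% to 60% for combo against Dex in MM1S, and from 36.6% to 47.7% for the TAK-981 by Dex term (53.2% with library size only). Causes of these shifts were not tested.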
